A study of Mus musculus with 16 samples.

Results

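The genes examined here encode 10 proteins that the liver secretes into plasma: Alb, Afp, Trf, Rbp4, Ttr, Hpx, Fga, Fgb, Fgg and Ahsg. They were picked by name out of the 22392 genes of the deposited count table. Each gene was followed by its transcript with the largest total count over the 16 libraries. The material was Hepa1-6, a mouse hepatoma cell line, as unedited WT cells and as 3 lines (KO1, KO2 and KO3) with Eef1d exon 5 deleted by CRISPR/Cas9. Eef1d encodes the delta subunit of EEF1B, the complex that reloads the elongation factor EEF1A during translation. Per the study's methods each KO line was grown from a single cell, KO1 and KO2 came from one pair of guide RNAs and KO3 from another, and the in-frame deletion left the rest of Eef1d in place. All lines were grown in the same DMEM medium with serum and carried no further treatment, and lysis buffer with cycloheximide and chloramphenicol was used throughout. Ribo-seq (sequencing of ribosome-protected fragments, here called footprints) and RNA-seq were made from the same lysate, with 2 replicates per line and assay.

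Hepatocytes make most plasma proteins on ribosomes at the endoplasmic reticulum (ER) and send them through the secretory pathway into the blood. Albumin keeps up the osmotic pressure of plasma and carries fatty acids, its fetal relative alpha-fetoprotein is made by the yolk sac and fetal liver and again by hepatomas, and transferrin, retinol-binding protein and hemopexin carry iron, vitamin A and heme. Transcription of these genes in the liver depends on factors such as HNF1, HNF4, C/EBP and FOXA, and hepatoma lines often keep only some of them. The question the design allows is whether deletion of exon 5, which the study links to docking of EEF1B at the ER, went with different RNA, footprints or translation efficiency (TE, footprints relative to RNA) of these genes.

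Libraries held between 24726706 and 30748268 counts over all transcripts for RNA-seq and between 2604223 and 11147904 for Ribo-seq, the KO1 Ribo-seq replicate 2 library being the smallest. On a log2 scale, replicates correlated across genes with Pearson's r between 0.994 and 0.995 for RNA and between 0.981 and 0.99 for footprints, although genes are not independent points. The targeted gene matched the labels: counts on the Eef1d transcript with exon 5 were between 116 and 116.2% of those on the transcript without it in WT RNA and between 89.79 and 92.58% in the 6 KO RNA libraries, where a read shared by both transcripts is counted on each. The corresponding footprint values were between 112.6 and 113.9% in WT and between 95.97 and 98.94% in the KO lines. The study's methods call the replicates biological where they describe a plot of the Ribo-seq reads, but neither they nor the labels say whether the 2 replicates of a line were separate cultures, so p-values measure only the spread between these samples.

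Promoter sequences are shown for Alb and Afp, whose RNA moved together, and for Hpx and Fgb, which took other courses. Each window runs 5′ to 3′ from 250 bases before to 50 bases after the RefSeq transcript start (GRCm38.p6, the build of the deposited files), with GTTAAT, one arm of the palindrome bound by HNF1, in capitals on either strand.
Alb, chr5:90460620-90460919, plus strand: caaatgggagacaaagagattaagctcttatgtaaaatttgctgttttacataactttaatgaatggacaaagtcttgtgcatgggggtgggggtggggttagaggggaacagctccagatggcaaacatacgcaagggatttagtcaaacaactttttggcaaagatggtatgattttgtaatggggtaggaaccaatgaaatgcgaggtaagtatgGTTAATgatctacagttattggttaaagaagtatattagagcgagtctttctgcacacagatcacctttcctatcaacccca
Afp, chr5:90490464-90490763, plus strand: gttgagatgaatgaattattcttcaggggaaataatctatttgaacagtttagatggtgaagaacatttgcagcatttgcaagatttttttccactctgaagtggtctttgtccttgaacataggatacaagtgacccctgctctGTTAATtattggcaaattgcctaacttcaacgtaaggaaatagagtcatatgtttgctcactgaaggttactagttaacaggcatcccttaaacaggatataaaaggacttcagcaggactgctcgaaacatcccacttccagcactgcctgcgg
Hpx, chr7:105600067-105600366, minus strand: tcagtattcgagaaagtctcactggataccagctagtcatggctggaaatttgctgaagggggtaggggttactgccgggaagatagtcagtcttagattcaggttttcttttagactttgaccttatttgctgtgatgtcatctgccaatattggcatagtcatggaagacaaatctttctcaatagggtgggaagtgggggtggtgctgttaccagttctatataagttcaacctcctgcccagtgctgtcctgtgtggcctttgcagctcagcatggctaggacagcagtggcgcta
Fgb, chr3:83049814-83050113, minus strand: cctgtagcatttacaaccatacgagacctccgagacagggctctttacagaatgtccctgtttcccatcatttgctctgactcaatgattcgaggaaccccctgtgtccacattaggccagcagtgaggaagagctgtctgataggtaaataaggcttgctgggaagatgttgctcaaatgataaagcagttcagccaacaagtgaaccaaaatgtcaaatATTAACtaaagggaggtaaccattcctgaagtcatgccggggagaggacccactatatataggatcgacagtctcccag

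The promoter table held windows for 8 of the 9 genes looked up, Trf being the exception. Rbp4 had 2 windows, and a gene is counted below if any of its windows held a match. GTTAAT or its reverse complement ATTAAC lay in the windows of 4 of these 8 genes, Alb, Afp, Fga and Fgb, and in 7.1% of all 32851 windows of this length. It began 32 bases before the start in Alb, 105 bases before it in Afp, 29 bases before it in Fgb and 43 bases before it in Fga. CCAAT on either strand was found in 5 of the 8 genes (37.4% of all windows), CAAAGT, part of the site of HNF4, in 3 (14.4%) and TATAAA in 2 (13.6%). In Rbp4 the CCAAT and TATAAA matches lay in different windows. Matches to different motifs did not overlap in these windows. These are matches of letters and not evidence that a factor bound there, and Fga, which had a GTTAAT match, was nearly silent in these cells.

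Of the 10 genes, 6 had enough counts to compare: Alb, Afp, Trf, Rbp4, Hpx and Fgb. The other 4 had at most 14 counts in any library and are described at the end. In WT cells Rbp4 was the most abundant RNA per coding length, at 2003 CPM (counts scaled to a common library size) per 1000 codons, followed by Alb at 1275, Afp at 1209 and Trf at 1043, whereas Fgb and Hpx stood at 102 and 54.1. Alb and Afp overlapped between replicates and did not differ beyond their spread, and the remaining neighbours in this order were separated. For footprints the WT order was Afp at 2292, Alb at 2275, Rbp4 at 1716, Trf at 853, Fgb at 138 and Hpx at 88.8 CPM per 1000 codons. On the footprint scale Alb and Afp thus stood above Rbp4, which they did not on the RNA scale, and they overlapped each other again. In KO1 the RNA order was Rbp4, Afp, Alb and Trf at 1811, 586, 448 and 310, whereas in KO3 it was Alb, Afp, Rbp4 and Trf at 3040, 1902, 1573 and 678 CPM per 1000 codons.

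All 6 genes had lower RNA in KO1 and in KO2 than in WT cells, and in KO3 Alb and Afp were higher while the other 4 were lower (edgeR quasi-likelihood test, Benjamini-Hochberg adjusted p under 0.05 over all genes, here called passing). In KO1, 6 of 6 passed as lower, where 24.6% of the 11515 genes tested did. In KO2, 6 of 6 passed as lower, where 8.86% of 11477 genes did. In KO3, 2 passed as higher and 4 as lower, where 23.1% and 22.3% of 11435 genes did. The median RNA log2 fold change of the 6 genes stood at -1.22 for KO1, -0.47 for KO2 and -0.49 for KO3, beside medians over all genes of 0.002, 0 and 0.001. The 3 comparisons share the WT libraries. In bulk RNA, fewer cells expressing a gene and less RNA per cell cannot be told apart.

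**Figure D1:**
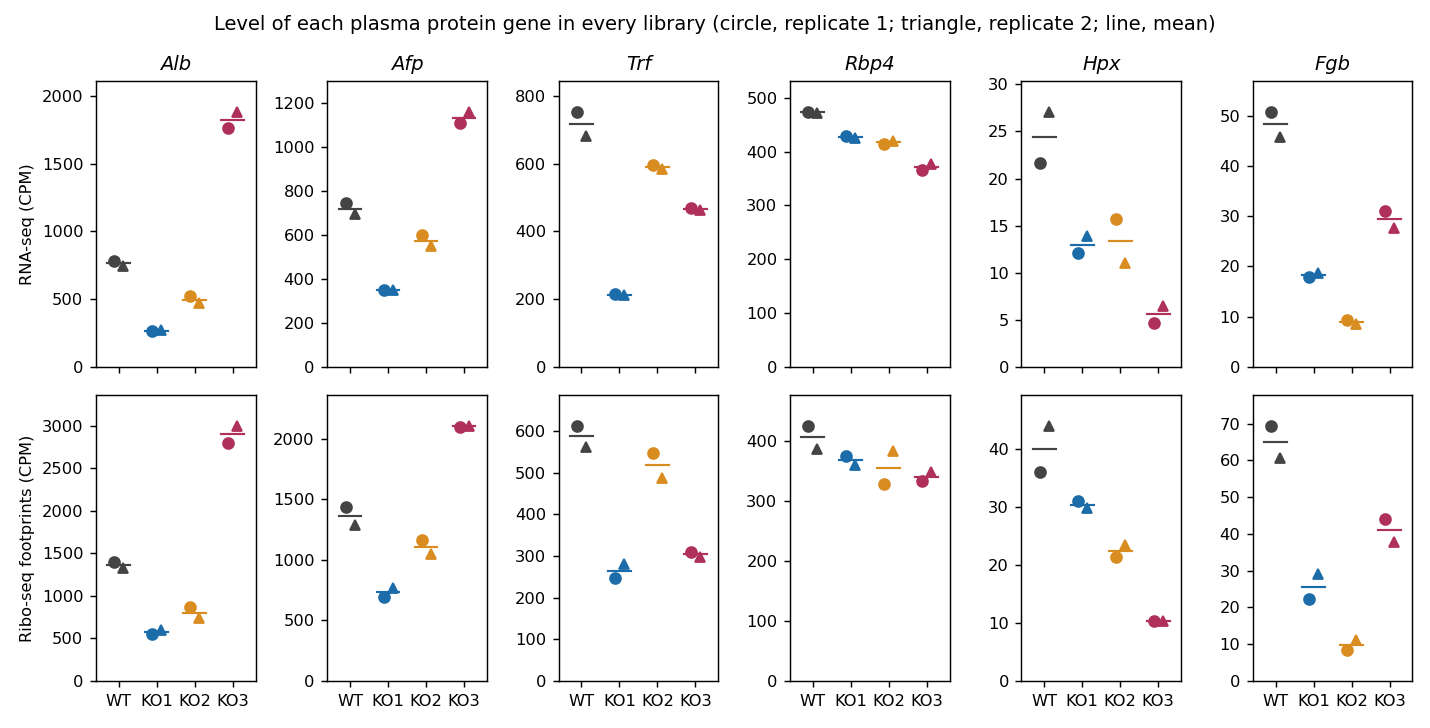
CPM (linear axes from 0) of the 6 measurable genes in each library, RNA-seq above and Ribo-seq below, with lines on the x axis, circles for replicate 1, triangles for replicate 2 and horizontal lines for the means. Alb and Afp are lowest in KO1 and highest in KO3, Trf is lowest in KO1, Hpx is lowest in KO3 and Fgb is lowest in KO2.

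Alb encodes albumin, the main protein of plasma. Its RNA was 784 and 743 CPM in the 2 WT libraries, 263 and 274 in KO1, 522 and 470 in KO2 and, in KO3, 1759 and 1883. The 4 lines did not overlap, with KO1 lowest and KO3 highest. The RNA was 2.85-fold lower in KO1 (log2 fold change -1.51, SE 0.0474, adjusted p = 1.34e-32), 1.54-fold lower in KO2 (-0.62, SE 0.0549, adjusted p = 1.46e-08) and 2.38-fold higher in KO3 (1.25, SE 0.0433, adjusted p = 2.38e-42). Footprints took the same order: 1400 and 1326 CPM in WT, 546 and 599 in KO1, 869 and 734 in KO2 and, in KO3, 2797 and 2999. Footprints thus fell 2.41-fold in KO1 and 1.69-fold in KO2 and rose 2.13-fold in KO3, and each change passed. Alb (chr5:90460897-90476602, plus strand, GRCm38) has a single transcript in the table, so its counts are not split among isoforms.

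Afp encodes alpha-fetoprotein, and the gene begins 14134 bases beyond the end of Alb on the same strand (chr5:90490737-90508907). Its RNA was 747 and 693 CPM in WT, 349 and 350 in KO1, 598 and 548 in KO2 and, in KO3, 1107 and 1160. As for Alb, KO1 was lowest, KO3 highest, and no 2 lines overlapped. Afp RNA fell 2.06-fold in KO1 (log2 -1.04, SE 0.0466) and 1.25-fold in KO2 (-0.33, SE 0.0542) and rose 1.57-fold in KO3 (0.65, SE 0.0448), with adjusted p of 6.28e-26, 0.000106 and 1.1e-22. The footprint log2 fold changes were -0.91, -0.29 and 0.62, and each passed, the KO2 value with adjusted p = 0.00264. Without WT replicate 1 the KO2 footprint change of Afp was -0.21 and did not pass (adjusted p = 0.151).

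Over the 8 RNA libraries log2 CPM (with a small constant added) of Alb and Afp correlated with Pearson's r of 0.992. This describes 4 lines in pairs of replicates and not 8 independent samples. Rbp4 and Hpx gave 0.958, and the remaining pairs of the 6 genes lay between -0.503 and 0.636. The changes of Afp were smaller than those of Alb in both directions, so that the ratio of the 2 genes shifted. Alb counts per codon were 1.04 and 1.06 times those of Afp in WT RNA, 0.748 and 0.781 times in KO1, 0.869 and 0.853 times in KO2 and, in KO3, 1.58 and 1.61 times. In footprints the ratio was 0.966 and 1.02 in WT, 0.779 and 0.774 in KO1, 0.742 and 0.694 in KO2 and, in KO3, 1.32 and 1.41. The ratio of KO3 lay above WT and those of KO1 and KO2 below it in both assays. Together Alb and Afp took up between 0.0618 and 0.0633% of RNA counts in KO1, between 0.145 and 0.154% in WT and between 0.279 and 0.296% in KO3.

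**Figure D2:**
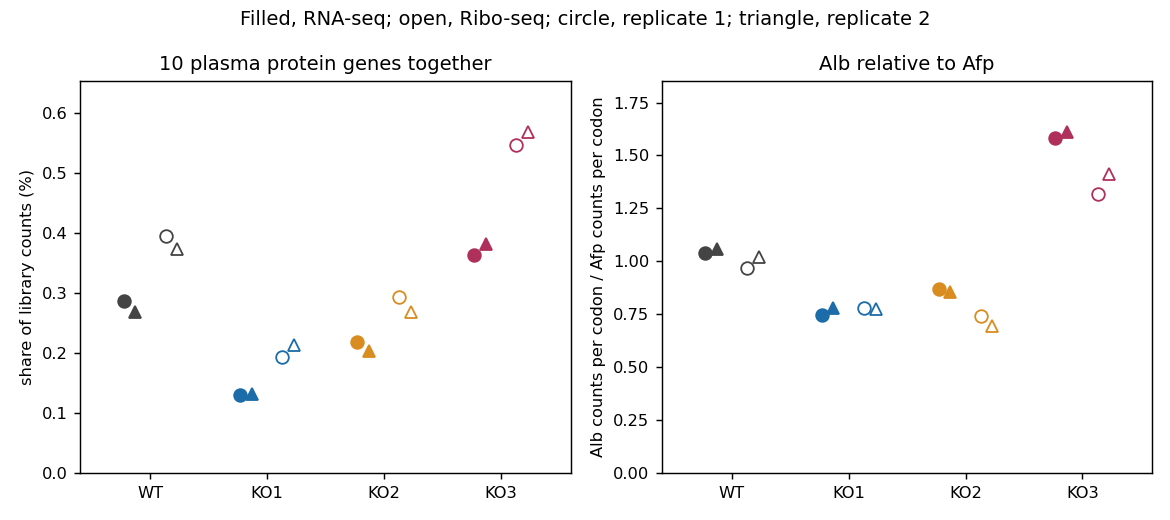
Left, share of library counts (%) taken by the 10 plasma protein genes; right, ratio of Alb to Afp counts per codon; both by line, with filled symbols for RNA-seq, open symbols for Ribo-seq, circles for replicate 1 and triangles for replicate 2. The RNA share runs from 0.13% in KO1 to 0.381% in KO3, and the RNA ratio from 0.748 in KO1 to 1.61 in KO3.

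Among 10001 genes, those whose RNA followed Alb most closely on this log2 scale over the 8 libraries were Mrps6, a mitochondrial ribosomal protein gene (r = 0.9949), 2200002D01Rik (r = 0.9944) and Frmd7 (r = 0.9942). Mrps6 RNA was 39.2 and 41.2 CPM in WT, 22.8 and 22.6 in KO1, 31.4 and 29.7 in KO2 and, in KO3, 72.1 and 69.7. The closest to Afp were Car2, a carbonic anhydrase gene (r = 0.9953), Wars, encoding tryptophanyl-tRNA synthetase (r = 0.9946), and Fam110c (r = 0.992). None of these is a plasma protein gene, and the r values are descriptions over 4 lines.

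Trf encodes transferrin, which carries iron in plasma (chr9:103208795-103230444, minus strand). Its RNA was 753 and 682 CPM in WT, 214 and 213 in KO1, 596 and 584 in KO2 and, in KO3, 470 and 463. Every KO library lay below both WT libraries, KO1 furthest. The RNA fell 3.36-fold in KO1 (log2 -1.75, SE 0.0501, adjusted p = 1.55e-34), 1.21-fold in KO2 (-0.28, SE 0.0527, adjusted p = 0.000434) and 1.54-fold in KO3 (-0.62, SE 0.0482, adjusted p = 1e-19). Without WT replicate 1 the KO2 change was -0.20 and did not pass (adjusted p = 0.0662). Footprints were 613 and 562 CPM in WT, 246 and 280 in KO1, 548 and 487 in KO2 and, in KO3, 310 and 298. For footprints the gap between KO1 and KO3 was thus much narrower than for RNA: they were 2.29-fold lower than WT in KO1 and 1.93-fold lower in KO3, and both passed. In KO2 the footprint log2 change was -0.17 (95% interval from -0.31 to -0.04, adjusted p = 0.0941). It ranged from -0.265 to -0.0973 when 1 replicate was left out, and without KO2 replicate 1 it passed (-0.265, adjusted p = 0.0128).

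Rbp4 encodes the plasma carrier of retinol (chr19:38116629-38125248, minus strand), and its RNA changed least of the 6 genes in each line. Its RNA was 474 and 471 CPM in WT, 429 and 426 in KO1, 414 and 420 in KO2 and, in KO3, 366 and 377. All KO libraries lay below both WT libraries, by 1.11-fold in KO1 (log2 -0.15, SE 0.0462, adjusted p = 0.00769), 1.13-fold in KO2 (-0.18, SE 0.0509, adjusted p = 0.0134) and 1.27-fold in KO3 (-0.35, SE 0.0496, adjusted p = 6.58e-09). The KO1 and KO2 calls were lost without either WT replicate (adjusted p between 0.0645 and 0.0925 for KO1 and between 0.128 and 0.161 for KO2), while the fold changes stayed between -0.155 and -0.143 and between -0.186 and -0.172. Footprints were 425 and 386 CPM in WT, 375 and 359 in KO1, 327 and 383 in KO2 and, in KO3, 332 and 348. The footprint change passed in KO3 (-0.26, SE 0.0654, adjusted p = 0.00201) and not in KO1 (-0.14, adjusted p = 0.145) or KO2 (-0.19, adjusted p = 0.0873). The KO3 footprint call was lost without WT replicate 1 (adjusted p = 0.138). Leaving out 1 replicate gave footprint values between -0.204 and -0.0619 in KO1 and, in KO2, between -0.31 and -0.0784, where it passed without KO2 replicate 2 (-0.31, adjusted p = 0.00358).

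Hpx encodes hemopexin, which binds free heme (chr7:105591613-105600137, minus strand), and had at most 318 RNA counts in a library. Its RNA was 239 and 318 counts (21.7 and 27.1 CPM) in WT, 139 and 148 counts (12.1 and 13.9 CPM) in KO1, 168 and 135 counts (15.7 and 11 CPM) in KO2 and, in KO3, 59 and 79 counts (4.68 and 6.47 CPM). KO3 was lowest, and KO1 and KO2 overlapped. RNA fell 1.89-fold in KO1 (log2 -0.92, SE 0.143, adjusted p = 4e-07), 1.84-fold in KO2 (-0.88, SE 0.16, adjusted p = 0.000309) and 4.39-fold in KO3 (-2.13, SE 0.171, adjusted p = 4.66e-19). Hpx therefore fell furthest in the line in which Alb rose. Footprints were 36 and 44 CPM in WT, 31 and 29.8 in KO1, 21.3 and 23.5 in KO2 and, in KO3, 10.3 and 10.3. The footprint changes passed in KO2 (-0.81, SE 0.161, adjusted p = 0.000706) and KO3 (-1.93, SE 0.182, adjusted p = 5.31e-12) and not in KO1 (-0.36, 95% interval from -0.67 to -0.06, adjusted p = 0.0807). Without WT replicate 2 the KO1 footprint value was -0.231.

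Fgb encodes the beta chain of fibrinogen, the clotting protein built from pairs of alpha, beta and gamma chains (chr3:83040141-83049863, minus strand). Its RNA was 558 and 537 counts (50.8 and 45.7 CPM) in WT, 206 and 200 counts (17.9 and 18.8 CPM) in KO1, 101 and 104 counts (9.45 and 8.46 CPM) in KO2 and, in KO3, 391 and 338 counts (31 and 27.7 CPM). The 4 lines did not overlap, and here KO2 was lowest. RNA fell 2.63-fold in KO1 (log2 -1.40, SE 0.11, adjusted p = 6.65e-16), 5.38-fold in KO2 (-2.43, SE 0.129, adjusted p = 3.46e-12) and 1.64-fold in KO3 (-0.72, SE 0.0998, adjusted p = 3.58e-09). Footprints were 69.5 and 60.7 CPM in WT, 22.3 and 29 in KO1, 8.29 and 11.1 in KO2 and, in KO3, 44.2 and 37.9. These were 2.77-fold, 6.86-fold and 1.59-fold lower than WT, and each change passed.

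For footprints, 4 of 6 genes passed as lower in KO1, where 15.2% of 10335 genes did, and 4 of 6 in KO2, where 4.99% of 10370 genes did. In KO3, 2 passed as higher and 4 as lower, where 14.9% and 15.7% of 10398 genes did. The footprint medians of the 6 genes stood at -1.06 for KO1, -0.52 for KO2 and -0.46 for KO3, beside 0.002, 0.001 and 0.004 over all genes. The genes that missed the threshold were Rbp4 and Hpx in KO1 and Trf and Rbp4 in KO2, all with footprint values below WT in both replicates.

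**Figure D3:**
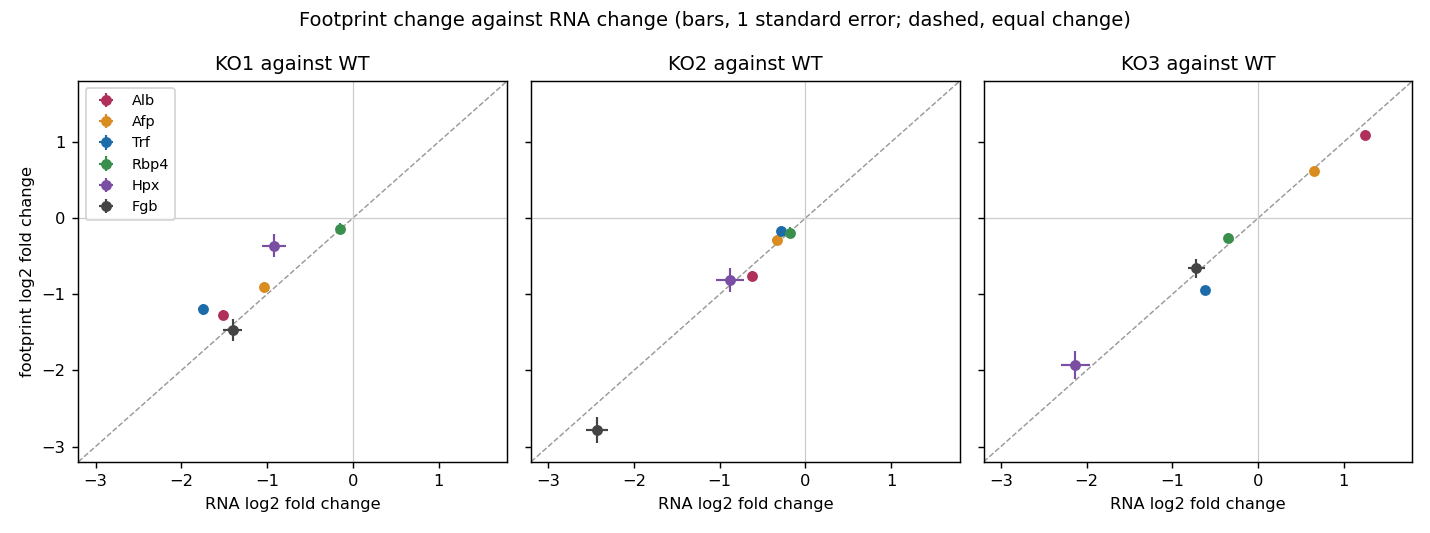
Footprint log2 fold change (y axis) against RNA log2 fold change (x axis) of the 6 genes in each KO line, bars giving 1 standard error and the dashed diagonal equal change. Most points lie near the diagonal, Trf lies above it in KO1 (-1.75 for RNA, -1.2 for footprints) and below it in KO3 (-0.62 and -0.95), and Hpx lies above it in KO1 (-0.92 and -0.36) with wide bars.

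The size of the change differed among the 3 KO lines for each of the 6 genes in RNA, by an F test that the changes of KO1, KO2 and KO3 are equal, and equality was rejected for 74% of 11756 genes. For footprints equality was rejected for 5 of 6 genes, all but Rbp4 (adjusted p = 0.382), where it was rejected for 59.5% of 10763 genes. The RNA log2 fold change of Alb was 2.76 higher in KO3 than in KO1 and that of Afp 1.7 higher. The KO3 value of Hpx minus its KO1 value was -1.22, and that of Fgb was 1.72 higher in KO3 than in KO2. The lines with the lowest RNA were KO1 for Alb, Afp and Trf, KO2 for Fgb and KO3 for Hpx and Rbp4. A single clone stands for each line, so the effect of the deletion and differences between clones that arose otherwise cannot be told apart.

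In WT cells the translation efficiency of these genes spanned a wide range. Log2 TE, the log2 ratio of footprint to RNA CPM, was 0.84 in both replicates for Alb, 0.95 and 0.90 for Afp, 0.73 and 0.70 for Hpx, 0.45 and 0.41 for Fgb, -0.16 and -0.29 for Rbp4 and -0.30 and -0.28 for Trf. The means of Alb, Afp and Hpx stood at the 93.3rd, 94.6th and 90th percentile of 6875 genes, whose median was -0.06, and those of Rbp4 and Trf at the 41.4th and 38.2nd. Of 13 further plasma protein genes with enough counts, 13 lay above the all-gene median in WT, between 0.01 and 1.38 with a median of 0.58. Of the 6 genes with counts, Trf and Rbp4 alone stood below the median gene.

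Against WT, TE of Trf was higher in KO1, and with the test as described above no other TE change of the 6 genes passed. In KO1, 1 of 6 genes passed, where 0.0942% of 11680 genes did in either direction, and 3 had an unadjusted p under 0.05 (Alb, Trf and Hpx). In KO2, 0 of 6 passed with edgeR or DESeq2 and 0 had an unadjusted p under 0.05, where 0.0173% of 11571 genes passed. In KO3, 0 of 6 passed with edgeR as described or with DESeq2 and 2 had an unadjusted p under 0.05 (Alb and Trf), where 0.104% of 11566 genes passed. These tests did not tie RNA-seq and Ribo-seq of one lysate. With a lysate term in edgeR, Alb in KO1 (adjusted p = 0.0244) and Trf in KO3 (adjusted p = 0.0316) also passed. Over all genes, 83 in place of 11 then passed in KO1.

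Log2 TE of Trf was -0.30 and -0.28 in WT, 0.20 and 0.39 in KO1, -0.12 and -0.26 in KO2 and, in KO3, -0.60 and -0.64. None of the KO lines overlapped with WT, KO1 and KO2 lying above it, KO2 replicate 2 only narrowly, and KO3 below. TE of Trf rose 1.47-fold in KO1 (log2 0.56, SE 0.0923, adjusted p = 0.00324), but without KO1 replicate 2, whose Ribo-seq library is the smallest, the value was 0.485 and did not pass (adjusted p = 0.0655). In KO3 the change was -0.32 (SE 0.0813, 95% interval from -0.48 to -0.16, adjusted p = 0.147), and it passed when RNA-seq and Ribo-seq of one lysate were tied by a lysate term (-0.32, adjusted p = 0.0316), with the replicate number as a block (adjusted p = 0.038) and with no filter on low counts (adjusted p = 0.0452). In KO2 the change was 0.11 (95% interval from -0.07 to 0.28). The TE change of Trf differed between the 3 lines (adjusted p = 1.5e-07), by 0.89 on the log2 scale between KO1 and KO3, where this test passed for 1.03% of 11903 genes.

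Log2 TE of Alb was 0.84 and 0.84 in WT, 1.05 and 1.13 in KO1, 0.74 and 0.64 in KO2 and, in KO3, 0.67 and 0.67. KO1 lay above WT, and KO2 and KO3 lay below it. The changes were 0.25 (SE 0.0797, adjusted p = 0.42), -0.14 (SE 0.0939) and -0.16 (SE 0.0725, adjusted p = 0.764), so none passed, while with the lysate term the KO1 change passed (0.255, adjusted p = 0.0244). The lines differed from each other in the TE change of Alb (adjusted p = 0.0176), but this was lost without either replicate of KO1 (adjusted p of 0.176 and 0.22) or of KO3 (0.0654 and 0.0647). For Hpx the log2 TE change was 0.56 in KO1 with an SE of 0.218 and adjusted p = 0.574. Its 95% interval from 0.13 to 0.99 was wide, as KO1 held 153 and 35 footprints. Afp, Rbp4 and Fgb had TE changes between -0.35 and 0.14, with 95% intervals that included 0 in each line. For Afp these intervals ran from -0.03 to 0.3 in KO1, from -0.14 to 0.21 in KO2 and from -0.17 to 0.12 in KO3.

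**Figure D4:**
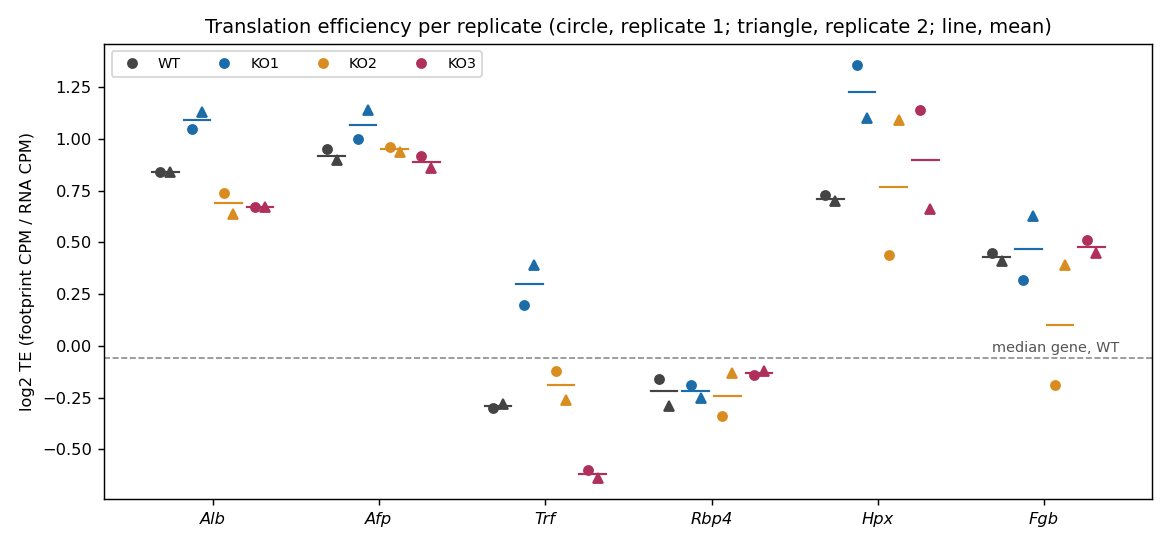
Log2 TE (footprint CPM over RNA CPM) of each gene by replicate, with colours for lines, circles for replicate 1, triangles for replicate 2, short lines for means and a dashed line at the WT median of all genes, -0.06. Alb and Afp stay well above the median gene in each line, and Trf lies above it in KO1 (0.20 and 0.39) and below it in KO3 (-0.60 and -0.64).

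Ttr encodes transthyretin, the carrier of thyroxine that also binds Rbp4 in plasma, and it had few counts. Its RNA counts were 14 and 7 in WT, 1 and 0 in KO1, 0 and 0 in KO2 and, in KO3, 5 and 5, and its footprints did not exceed 6 in any library. For RNA both WT libraries lay above the KO libraries, while footprints of WT and KO1 overlapped. The KO1 to WT ratio of RNA was 0.0488, with a 95% counting interval from 0.00118 to 0.303, and that of KO3 was 0.436 (0.183 to 0.968). For KO2, with 0 counts, the ratio was 0 with an interval up to 0.19. These intervals cover counting error only. Ttr did not pass the low-count filter for RNA or footprints. It entered the TE tests of KO1 and of equal change through its WT counts and passed in neither (adjusted p of 0.813 and 0.859), and with 1 RNA count in KO1 no TE value is given. With no filter on low counts, 7 of the 10 genes passed for RNA in KO1 and in KO2.

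Fga and Fgg, the alpha and gamma chains of fibrinogen, lie next to Fgb on chromosome 3, with 11509 bases between Fgg and Fga and 6513 bases between Fga and Fgb. Fga RNA was 4 and 2 counts in WT and between 0 and 2 in the KO libraries, and Fgg RNA was 0 in all 8 libraries, with 1 footprint count in 1 WT library. Of the 3 chains only Fgb was measurable in these libraries. Ahsg, encoding fetuin-A, an inhibitor of calcification, had between 0 and 5 RNA counts and 0 footprints in all 8 Ribo-seq libraries. A count of 0 still allows up to 3 counts, which correspond to between 0.238 and 0.282 CPM in RNA and between 0.608 and 2.56 CPM in footprints. No direction is given for these 3 genes.

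Other plasma protein genes moved in both directions. From a list of 82 such genes (apolipoproteins, complement and clotting factors, protease inhibitors and carriers), KO1 had 14 of 27 tested passing as lower and 6 as higher, KO2 had 12 of 28 and 2, and KO3 had 11 of 27 and 4. Over all genes tested, 24.6% passed as lower and 22.1% as higher in KO1, 8.86% and 11.6% in KO2 and, in KO3, 22.3% and 23.1%. The list's median RNA log2 fold changes were -0.37, -0.34 and -0.21, and nothing particular to the list is read from them. RNA of Igfbp1, encoding an insulin-like growth factor carrier, fell in each line (log2 -2.06, -0.67 and -0.50). So did RNA of Gc, the vitamin D carrier of the albumin family (-2.51, -1.37 and -2.44), which reached at most 101 counts in a library. Footprint changes of Gc passed in KO1 (-2.33) and KO3 (-3.14) and not in KO2 (-0.85). RNA of complement C3 rose in KO1 (1.92, SE 0.0705) and KO2 (0.38, SE 0.0869). RNA of C1s1, a complement protease, rose in each line (0.76, 0.42 and 0.75), while its footprint change passed in KO1 (0.64) and KO3 (0.6) and not in KO2 (0.2). RNA of Cfi, encoding complement factor I, rose in KO1 (0.76) and fell in KO2 (-2.42) and KO3 (-1.87). Its footprint change passed as lower in KO2 (-2.97) and KO3 (-2.02) and did not pass in KO1 (0.33).

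Of 20 transcription factors and other regulators of liver genes, 19 were tested for RNA, and KO1 had 9 passing as lower and 5 as higher, KO2 had 3 and 3 and KO3 had 6 and 6. The shares over all genes were 24.6% lower and 22.1% higher for KO1, 8.86% and 11.6% for KO2 and, for KO3, 22.3% and 23.1%. Hnf4a, a nuclear receptor that drives many hepatocyte genes, was 109 and 104 CPM in WT, 31 and 23.5 in KO1, 92.8 and 98 in KO2 and, in KO3, 81.5 and 85.1. Its RNA fell in KO1 (log2 -1.97, SE 0.0912, adjusted p = 3.29e-25) and KO3 (-0.36, SE 0.0724, adjusted p = 2.49e-05), and in KO2 the value was -0.16 (adjusted p = 0.139). RNA of Zhx2, known as a postnatal repressor of Afp, rose in KO1 (0.54) and KO3 (0.61), with 0.1 in KO2, which did not pass. Zhx2 footprints passed as higher in each line (0.91, 0.79 and 0.57, from KO1 to KO3). Afp was lower than WT in KO1 and KO2 but higher in KO3. Foxa1 RNA was higher in KO1 (0.44) and KO3 (1.04) and lower in KO2 (-0.76). Its footprint changes were -0.22 in KO1 and -0.1 in KO3, neither passing, and -1.21 in KO2, which passed. Cebpd, a C/EBP family factor, fell in KO1 (-0.64) and KO2 (-1.34), with 0.01 in KO3. RNA of Prox1, a homeobox factor of the liver, fell in KO1 (-0.65) and KO3 (-1.15), with -0.07 in KO2. Its footprint change passed in KO3 (-1.38) and not in KO1 (-0.39). RNA of Zfhx3, known as a repressor of Afp, rose in KO2 (0.38) and KO3 (0.14), with -0.07 in KO1. Its footprint changes of 0.38 in KO2 and 0.09 in KO3 did not pass. Whether any of these factors had a part in the changes of the plasma protein genes was not tested.

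Of 12 receptors for plasma proteins, 9 were tested for RNA, and KO1 had 4 passing as lower and 4 as higher, KO2 had 2 and 0 and KO3 had 4 and 4, beside the same shares of all genes (24.6% lower and 22.1% higher for KO1, 8.86% and 11.6% for KO2, 22.3% and 23.1% for KO3). Tfrc, the transferrin receptor, fell in KO1 (log2 -0.47, SE 0.0561) and KO3 (-0.15, SE 0.056, adjusted p = 0.0192), with 0.04 in KO2. RNA of Fcgrt, the neonatal Fc receptor that recycles albumin, fell in KO1 (-0.60) and KO2 (-0.43) and rose in KO3 (0.39). Its footprint changes were -0.58 in KO1, which passed, and 0 in KO2 and 0.04 in KO3, which did not. Stra6, the membrane receptor for Rbp4, fell in KO1 (-0.18) and KO3 (-0.38) at the RNA level, and its TE fell in KO3 (-0.35, SE 0.0733, adjusted p = 0.0215). RNA of Cubn, an endocytic receptor that takes up albumin and transferrin, rose in KO1 (0.88) and KO3 (2.01), with 0.15 in KO2. Its footprint change passed in KO3 (2.49) and not in KO1 (0.6) or KO2 (0.45). RNA of Il6ra, the receptor for interleukin 6, rose in KO1 (0.42) and KO3 (0.66), with -0.27 in KO2. Its footprint change passed in KO3 (0.7) and not in KO1 (0.07) or KO2 (-0.27).

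Of 14 markers of the hepatocyte lineage 11 were tested for RNA, and KO1 had 8 passing as lower and 1 as higher, KO2 had 3 and 1 and KO3 had 3 and 6. Over all genes tested, 24.6% passed as lower and 22.1% as higher in KO1, 8.86% and 11.6% in KO2 and, in KO3, 22.3% and 23.1%. Apob, the main structural protein of very low density lipoprotein, fell in KO1 (-0.80) and KO3 (-0.99) and rose in KO2 (0.60), opposite to Alb in KO2 and KO3. The summed RNA of the 14 markers, Alb, Afp and Ttr among them, was between 4005 and 4052 CPM in WT, between 2143 and 2144 in KO1, between 3706 and 3723 in KO2 and between 5636 and 5838 in KO3. Over the 11 markers that are not plasma protein genes studied here, the sum was between 2519 and 2568 CPM in WT, 1521 and 1532 in KO1, 2586 and 2705 in KO2 and, in KO3, 2771 and 2794, most of it from the keratins Krt8 and Krt18. The liver markers Apoa1 and Apoh had at most 14 and 3 counts in a library. Of the markers of bile duct cells, Spp1, Sox9 and Krt7 were abundant in WT and Krt19 had at most 8 counts. The bile duct markers summed to between 444 and 461 CPM in WT, between 125 and 133 in KO1, between 615 and 626 in KO2 and between 827 and 900 in KO3. Sox9 alone was 93.2 and 81.1 CPM in WT, 69.5 and 71.7 in KO1, 81.8 and 95.4 in KO2 and, in KO3, 114 and 125. Of 4 bile duct markers tested, KO1 had 3 passing as lower, KO2 2 as higher and KO3 4 as higher. The matching shares of all genes were 24.6% lower in KO1, 11.6% higher in KO2 and 23.1% higher in KO3. The endothelial markers stayed between 0.0793 and 2.27 CPM in sum and the leukocyte markers between 5.15 and 21.7, highest in KO1. Most of the KO1 leukocyte sum was Csf1r, at 17.2 and 16.8 CPM in KO1 against 2.82 and 5.28 in WT. Cd68 went the other way, at 4.16 and 4.32 CPM in KO1 against 6.37 and 5.37 in WT. The 5 markers of fibroblasts and stellate cells summed to between 709 and 1101 CPM, nearly all of it Dcn. The part of these marker differences in the changes of the plasma protein genes was not tested.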

How the data were processed

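RNA-seq and Ribo-seq were made from Hepa1-6 WT cells and 3 Eef1d exon 5 KO lines, 2 replicates each. The labels name polyA RNA as the molecule, whereas the protocol describes rRNA depletion. The authors trimmed reads with fastp 0.21.0, removed noncoding RNA reads, aligned with STAR 2.7.0a to mm10 with GENCODE annotation and deposited raw counts of A sites per transcript over the coding sequence without 5 codons at each end. A read is counted on every transcript it fits, so 1 transcript per gene was used. The table lists 67139 transcripts and their counted codons.

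Counts were tested with edgeR 4.0.16 (R 4.3.3): TMM within each assay, filterByExpr, quasi-likelihood test, Benjamini-Hochberg over all genes, threshold 0.05. Each KO line was compared with WT for RNA and footprints (4 libraries each) and TE (interaction of genotype and assay, 8 libraries), and an F test asked whether the 3 changes were equal. SE is the log2 fold change over the root of F, and 95% intervals are 1.96 SE. Ttr RNA intervals are exact for counts. Scripts were tested on simulated data. A gene was near the floor when no library of the assay had 10 counts. Members and lists were chosen with earlier results of these data known. Named list genes are up to 3 higher and 3 lower per list, by mean change, among genes passing for RNA in at least 2 lines in 1 direction with at least 100 counts in a library, and the 3 genes most correlated with Alb and with Afp are named. Gene positions are from GENCODE vM21 (GRCm38), matched by transcript, and promoters from RefSeq.

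Replicate numbers: the 2 assays of a replicate share a lysate per the protocol. Their deviations from the line means correlated in all 4 lines (r from 0.111 to 0.283 over 4014 genes). A lysate term was therefore fitted for TE as an alternative, while the main TE test held none. Across lines the same number correlated with r from -0.0023 to 0.372 for RNA and from 0.0969 to 0.2 for footprints. These values overlap those within a lysate, and whether the number marks a shared batch was not tested. The study names no such block, so the main tests held none and a replicate block was fitted as an alternative. Alternatives covered normalization, filter, transcript choice, replicate block, thinning, DESeq2 1.42.0, samples in the fit and leaving out each replicate.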

Additional observations from a re-analysis of the deposited data

Results flagged for a closer look

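The results below were picked out because the change from WT differed between the 3 KO lines by a test of the difference itself (edgeR F test, adjusted over all genes). For RNA the adjusted p was 7.35e-32 for Alb, 6.1e-25 for Afp, 2.56e-22 for Trf, 6.76e-13 for Fgb, 7.39e-07 for Hpx and 0.00181 for Rbp4. Alb and Afp were lower than WT in all KO1 and KO2 libraries and higher in all KO3 libraries, whereas Trf, Rbp4, Hpx and Fgb were lower in all 6 KO libraries and differed in size.

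For footprints the adjusted p was 8.51e-30 for Alb, 2.27e-22 for Afp, 1.27e-15 for Trf, 2.69e-12 for Fgb and 2.15e-08 for Hpx. For TE it was 1.5e-07 for Trf and 0.0176 for Alb, with Trf TE above WT in both KO1 replicates and below it in both KO3 replicates. Among all genes tested, this test passed for 74% in RNA, 59.5% in footprints and 1.03% in TE, so calls were common in RNA and footprints and few in TE. How often TE differed cannot be read from the number of calls, which depends on depth and on the model. For TE, 1222 of 11903 genes had an unadjusted p under 0.05, and the lysate term gave 407 calls in place of 123.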

How the results depend on the processing

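Of 252 recomputed RNA changes of the 6 genes, 247 kept direction and side of the threshold, as did 243 of 252 for footprints and 265 of 286 for TE. For equality of the lines it was 102 of 102 for RNA, 102 of 102 for footprints and 107 of 112 for TE, where values for which DESeq2 gave no adjusted p are left out. The all-gene median log2 change lay within 0.0357 of 0 under every alternative run. No RNA or footprint change turned direction.

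With the lysate term, 2 genes passed for TE in KO1 and 1 in KO3, the additional ones being Alb and Trf, and no other call of the 6 genes changed. With the replicate block, Trf passed for TE in KO3 (-0.324, adjusted p = 0.038), so 1 gene passed there, and for footprints Rbp4 passed in KO1 (adjusted p = 0.0487) and Trf and Rbp4 in KO2 (0.0173 and 0.00722). The main tests did not pair the lines by replicate number, and the block changed no other call of the 6 genes. With no filter, 1 gene passed for TE in KO3 (Trf, adjusted p = 0.0452). Thinned to the smallest library, equality of TE was rejected for 1 gene, Alb being lost (adjusted p = 0.0615), and the KO3 footprint call of Rbp4 was lost thinned (0.0691) and with DESeq2 (0.0574). When each replicate was left out in turn, the lone sample being assumed to vary like the other groups, between 0 and 1 genes passed for TE in KO1 and between 1 and 2 for equality of TE. The causes were not tested.

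TE values that turned direction had not passed. For Rbp4 in KO1 they were -0.00161 with at least 10 counts in every library and -0.0169 thinned, and in KO2 0.00163 thinned and 0.00836 with TMM over both assays. Thinned, they were -0.199 and -0.0475 for Hpx in KO2 and KO3 and -0.124 for Fgb in KO3. Leaving out replicates, they ranged in KO1 from -0.0484 to 0.0817 for Rbp4 and from -0.128 to 0.185 for Fgb, in KO2 from -0.127 to 0.0908 for Rbp4 and from -0.251 to 0.411 for Hpx, and in KO3 from -0.0474 to 0.00859 for Afp and from -0.0111 to 0.453 for Hpx.

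Counts over all genes moved by over 1.5 times as follows. DESeq2 called 1407 genes for RNA in KO2 (2349 with edgeR), 869, 330 and 1255 for footprints in KO1, KO2 and KO3 (2777, 1216 and 3183), 19 and 7 for TE in KO1 and KO3 (11 and 12) and 3851 for equality of footprints (6405). Thinned, the footprint counts were 1499, 567 and 1425, those for TE in KO1 and KO3 7 and 4, and those for equality 3854 for footprints and 65 for TE (123). The lysate term gave 83 and 4 for TE in KO1 and KO2 and 407 for equality of TE, and the replicate block 56 in KO1 and 232. With no filter TE counts were 21 in KO1 and 19 in KO3, with 10 counts in every library 1 in KO2, and with all libraries in 1 fit 7 in KO3. Testing all transcripts, which enter in far larger number, gave 15261, 5762 and 13880 for RNA, 7346, 2814 and 7988 for footprints, 65, 6 and 36 for TE, and 25610, 17673 and 419 for equality. Leaving out replicates gave down to 1390 for RNA in KO2, 1381 and 710 for footprints in KO1 and KO2, 4, 1 and 2 for TE and 60 for equality of TE. Depth limits Hpx and Fgb most, with 33 footprints in their lowest libraries.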
